A study of Macaca mulatta with 28 samples.

Results

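Microexons are internal exons so short that they code for only a handful of amino acids. Here they are the exons of at most 27 bases that are neither the first nor the last listed exon of their gene and that reached 10 normalized reads in at least 5 of 28 libraries. Of 156345 exons listed in the deposited exon table, 561 were this short, 461 of these were internal, and 255 in 224 genes passed the value filter. Of the other 206 internal short exons, 33 were at 0 in all 28 libraries. Exon numbers count the listed exons of a gene by rising coordinate, whatever its strand, so they are not transcript exon numbers. Before and after follow the same order. A normalized read is the authors' upper-quartile scaled read, and 1 sequenced read was worth 0.605 to 8.02 of them depending on the library.

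Neurons include many microexons that other cells skip. Most known neural microexons keep the reading frame and change a protein surface where partners bind, often in adhesion receptors, in the vesicle release machinery and in the cytoskeleton. The splicing factors SRRM4 and SRRM3 promote their inclusion, RBFOX and NOVA proteins act from nearby intron sites, and PTBP1 represses many of them outside neurons.

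The RNA came from dissected tissue blocks that held the amygdala's central nucleus (CeA), which links stress and reward, from 28 male rhesus macaques, with 1 library per animal. All 28 animals drank ethanol, and no animal without ethanol is among them. After about 90 days of induction they could take 4% (w/v) ethanol 22 hours per day for over 12 months. Drinking categories came from the labels. Binge drinkers (BD, 5 animals) had intakes of 2 g/kg or more on 55% of days together with blood ethanol of 80 mg/dl. Heavy drinkers (HD, 7 animals) took 3 g/kg on 20% of days, and very heavy drinkers (VHD, 6 animals) averaged more than 3 g/kg and exceeded 4 g/kg on 10% of days. Low drinkers (LD, 10 animals) fell in none of these. Cohort 4 (8 animals) averaged 8.24 years at induction and 9.98 years after open access, cohort 5 (7 animals) 5.63 and 7.15, cohort 7a (8 animals) 4.18 and 5.7, and cohort 7b (5 animals) 5.69 and 7.18. Cohort 5 held HD and VHD animals only, so its age and its drinking cannot be told apart.

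Depth over gene exons was 1910514 reads in the shallowest library, a BD animal of cohort 4, and 25928489 in the deepest, with a median of 16444833. Of 17 CeA marker genes, 16 were in the gene table and all 16 passed the value filter. The summed level of the 15 pan-neuronal genes ran from 132234 to 253323 normalized reads, with LD at 132234 to 229064, BD at 152998 to 240676, HD at 156124 to 253323 and VHD at 167902 to 197361. The cholinergic list, a mark of neighbouring basal forebrain, ran from 41.9 to 21630, so the blocks differed in what they held. In such bulk tissue fewer cells of a type and less RNA per cell cannot be told apart.

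Short exons kept the reading frame more often than long ones. Of the 255 microexons, 150 had a length divisible by 3, or 58.8% (95% Wilson interval 52.7% to 64.7%), against 39.1% of the 92056 tested internal exons over 27 bases. The share was 81.8% at 15 bases or fewer (18 of 22 exons), 68.1% at 16 to 21 bases (32 of 47) and 53.8% at 22 to 27 bases (100 of 186). It was 42.9% at 28 to 51 bases and 38.7% at 52 to 100 bases. The single most common length was 27 bases (59 exons), followed by 24 bases (41 exons). The introns beside microexons had a median of 1472 bases, near the 1624 bases beside the longer exons. No microexon lay within 70 bases of another listed exon of its gene. Whether any was split from a neighbour over a larger gap was not tested.

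The exon reads of a microexon were below those of its gene. Relative use is the exon's log2(value + 1) minus the mean of that quantity over all tested exons of the gene, so 0 is the gene's own mean. Its median was -1.17 over the 255 microexons (5th to 95th percentile -2.89 to -0.18) and -0.09 over the longer internal exons. It was -2.13 at 15 bases or fewer, -1.33 at 16 to 21 bases, -1.05 at 22 to 27 bases, -0.66 at 28 to 51 bases and -0.34 at 52 to 100 bases. An exon of fewer bases can take up fewer reads, so these levels hold length as well as inclusion, and how reads that cross a junction were assigned is not given in the sources used here. Reads from unspliced RNA over the same bases are not separated either.

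**Figure D1:**
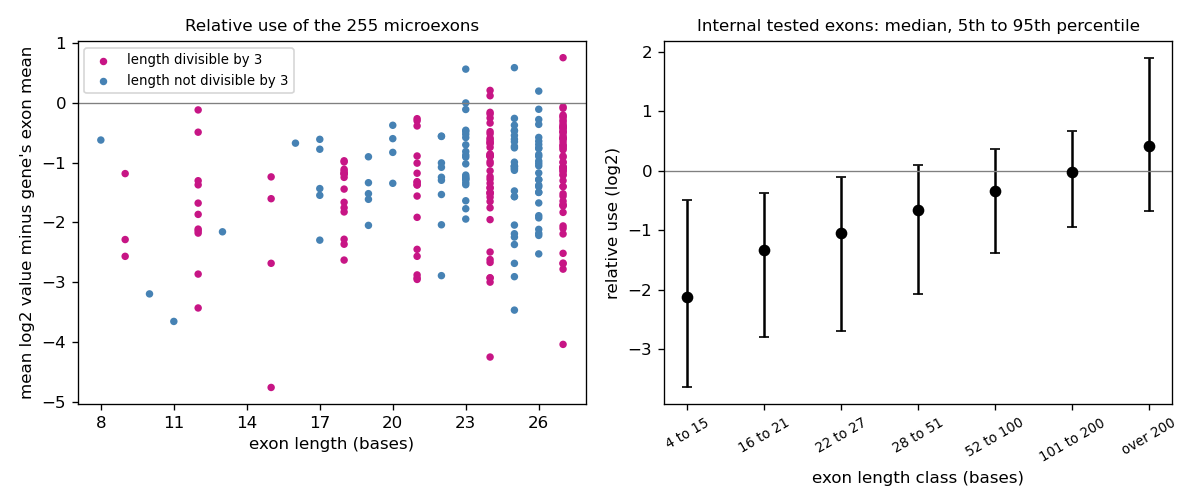
Left, mean relative use (log2, 28 animals) of each of the 255 microexons against its length in bases, coloured by whether the length is divisible by 3. Right, median (points) and 5th to 95th percentile (bars) of relative use by length class for all tested internal exons, where the median climbs from -2.13 in the shortest class to 0.41 in exons over 200 bases.

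Relative use was above 0 in 7 of 255 microexons. It was 0.76 for the 27-base exon 2 of UQCRH (chromosome 1, 45639518 to 45639544), a subunit of respiratory complex III, at 341 to 770 normalized reads. It was 0.57 for the 23-base exon 2 of RPL41, a ribosomal protein, at 384 to 922 normalized reads. The 24-base exon 2 of PET100, a complex IV assembly factor, had 0.21 and the 26-base exon 10 of TMEM241 had 0.20. RPL41 had the smallest spread of relative use of the 255, with an SD of 0.05 over 28 animals.

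At the other end stood exons read far less than the rest of their gene. The 15-base exon 3 of ACTR2 (chromosome 2a, 66192010 to 66192024), an actin-nucleating Arp2/3 subunit, had a relative use of -4.76 at 1 to 24 normalized reads. The 24-base exon 13 of TNIK, a postsynaptic kinase, had -4.25 at 0 to 26. The 11-base exon 2 of SEPT5, a septin of presynaptic terminals, had -3.66 at 17 to 41, and the 25-base exon 20 of TOP1, DNA topoisomerase I, had -3.47 at 0 to 17. With 3 reads worth 1.82 to 24.1 normalized reads, several values of ACTR2, TNIK and TOP1 rest on a few reads. At the value threshold, MED14, MALT1 and TNIK were just inside with 5 libraries at 10 and means of 7.11, 6.68 and 6.61, while ACACA, PHIP and MYSM1 were just outside with 4 libraries and means of 8.54, 6.75 and 6.5. At the length threshold, exons of 27 bases in UQCRH, SNRPE and POLDIP2 (means 562, 90.5 and 72.5) were inside, and exons of 28 bases in KIF5A, B2M and MYL6 (means 468, 382 and 189) were outside.

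Genes known to carry neural microexons held 43 of the 255, in 32 of the 223 genes listed. Of these 43, 35 (81.4%, Wilson interval 67.4% to 90.3%) had a length divisible by 3, against 115 of the other 212 (54.2%, 47.5% to 60.8%). Their median relative use was -1.60, and that of the other 212 was -1.09.

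Adhesion receptors held 13 microexons in 6 genes, with a median relative use of -2.29, the lowest of the 5 host lists. The 18-base exon 29 of NRCAM (chromosome 7, 133309527 to 133309544), a cell adhesion molecule of axons and nodes of Ranvier, was the most abundant with 53 to 242 normalized reads (median 103) and a relative use of -1.44 ± 0.22 (SD, n = 28). PTPRD, a receptor phosphatase whose short inserts tune its binding to postsynaptic partners, held microexons of 15, 12, 18 and 9 bases (exons 14, 24, 26 and 27) with relative use of -2.68, -2.14, -2.28 and -2.29. The 27-base exon 13 of its relative PTPRF had 24 to 79 normalized reads and -1.20. NFASC, neurofascin of the axon initial segment, had an 18-base exon at 16 to 61 and a 15-base exon at 13 to 59 normalized reads.

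The vesicle release and trafficking list of 52 genes, 42 of them in the gene table, held 4 microexons. The 24-base exon 4 of PICALM, a clathrin adaptor, had 45 to 88 normalized reads and a relative use of -1.42 ± 0.17. The liprins PPFIA3 and PPFIA4, scaffolds of the active zone, each had a microexon of 27 bases, at 16 to 53 and at 8 to 54 normalized reads. The 12-base exon 4 of RIMS1, another active zone scaffold, had 14 to 45.

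Cytoskeletal genes held 14 microexons in 11 genes with a median relative use of -0.99. CLASP2, which stabilizes microtubule ends, held an 18-base exon (chromosome 3, 9882598 to 9882615) at 136 to 254 and a 24-base exon next to it at 135 to 283 normalized reads. Their relative use was -1.11 ± 0.15 and -1.02 ± 0.15, so both were steady across animals. The 24-base exon 2 of ARHGEF12, a guanine nucleotide exchange factor, was less steady at 41 to 176 normalized reads and -0.89 ± 0.58. RAPGEF2, a Rap exchange factor, had a 24-base exon at 48 to 118, the kinesin KIF21A a 12-base exon at 22 to 108, and PALM2 a 22-base exon at 28 to 64. Outside this list, DCTN1, the large subunit of the dynein activator dynactin, had 24-, 18- and 21-base exons in a row, at relative use -1.75, -1.25 and -1.18.

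Channels, receptors and scaffolds held 5 microexons in 4 genes. The 12-base exon of ANKS1B, a postsynaptic scaffold, is described with the 2 separate ranges. The sodium-calcium exchanger SLC8A1 had adjacent 18- and 21-base exons at 8 to 128 and 10 to 69 normalized reads. CACNB4, a calcium channel beta subunit, had a 20-base exon at 32 to 94 and a relative use of -0.60 ± 0.22, and SHANK1, a postsynaptic scaffold, a 27-base exon at 10 to 45.

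The list of kinases, transcription, translation and RNA factors held 7 microexons in 7 genes. MEF2C, a neuronal transcription factor, had a 24-base exon 4 at 10 to 198 normalized reads and -1.5 ± 0.58, and MEF2D a 21-base exon 5 at 2 to 33 and -1.91 ± 0.45. The 12-base exon 10 of KDM1A (chromosome 1, 21703721 to 21703732), which makes the neuronal form of this histone demethylase, had 20 to 64 normalized reads, a median of 41 and -1.30 ± 0.28. The 24-base exon 4 of CPEB4, a translation regulator, had 0 to 48 and -2.93 ± 0.87, the 22-base exon 4 of TNRC6B, a microRNA effector, 0 to 41, and the 27-base exon 16 of the kinase MARK3 9 to 30. KDM1A was the steadiest of the 6.

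Some genes with near-identical symbols, inside and outside these lists, had a microexon of the same length. Of 26 sets of genes whose symbols differ in the last character, 18 had a length in common. Lengths also recur without such a tie, with 59 of the 255 microexons at 27 bases and 41 at 24 bases, and the share among other sets of genes was not tested. YTHDF1, YTHDF2 and YTHDF3, readers of m6A in messenger RNA, each had a 25-base exon 2, at relative use -2.19, -2.04 and -2.68. The splicing kinases SRPK1 and SRPK2 each had a 26-base exon 8, the ubiquitin-conjugating enzymes UBE2A and UBE2B a 26-base exon 3, and the sideroflexins SFXN4 and SFXN5 a 26- and a 27-base exon. The potassium channels KCNQ3 and KCNQ5 each had a 27-base exon, at 3 to 94 and 8 to 88 normalized reads. PRKACB, a catalytic subunit of protein kinase A, held 4 microexons in a row of 10, 24, 24 and 9 bases, at relative use -3.20, -1.28, -0.98 and -2.57. TAC1, the precursor of substance P, a CeA peptide, had a 24-base exon 4 at 24 to 258 normalized reads and a relative use of -0.34 ± 0.14, so the exon followed its variable gene closely. MOG, a myelin surface protein, had a 21-base exon 4 at -0.26 and another 21-base exon 8 at -2.95. Reads of genes with near-identical copies may be shared between them.

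The median SD of relative use over 28 animals was 0.41 for the microexons and 0.27 for longer internal exons, which have higher values. At a like mean level the medians were closer. They were 0.61 and 0.49 at a mean under 20 normalized reads, 0.36 and 0.30 at 20 to 50, 0.23 and 0.21 at 50 to 100, and 0.16 and 0.15 at 100 or more. The share of exons with a large spread differed more. An SD over 1 was found in 26 of 255 microexons (10.2%) and in 0.289% of all longer exons. The share was 2.92% at 28 to 51 bases, so it fell with length. An SD over 1 was also found at higher values. It held for 5 of 41 microexons with a mean of 50 to 100 normalized reads (12.2%) against 0.123% of longer exons in that range. With a mean of 100 or more it held for 2 of 33 (6.06% against 0.0885%). In these ranges the longer exons are all those over 27 bases, and those of 28 to 51 bases were not set apart. The largest SDs were those of MAPK8IP3 (2.63), ANKS1B (2.14), PTPRA (1.59), SLC24A3 (1.58) and MAP2K5 (1.49).

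In 10 microexons the animals fell into 2 ranges with nothing between them. The criterion was a gap of at least 1.5 in log2(value + 1) with at least 3 animals on each side, and 3.92% of microexons and 0.131% of longer internal exons met it (0.761% at 28 to 51 bases). The 12-base exon 9 of MAPK8IP3 (chromosome 16, 1738812 to 1738823), a kinesin adaptor that also scaffolds JNK kinases, had 0 to 7 normalized reads in 13 animals and 70 to 138 in the other 15. Its 119-base neighbour before it had 138 to 230 in the 13 and 136 to 263 in the 15, and the whole gene 3586 to 6108 and 4276 to 7315, so neighbour and gene overlapped where the microexon did not. The 13 animals were 2 of 10 LD, 2 of 5 BD, 4 of 7 HD and 5 of 6 VHD. By cohort they were 4 of 8 in cohort 4, 6 of 7 in cohort 5, 2 of 8 in cohort 7a and 1 of 5 in cohort 7b. Cohort 5 holds HD and VHD animals only, so category and cohort cannot be told apart in these tallies.

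The 12-base exon 5 of ANKS1B (chromosome 12, 97965900 to 97965911) had 0 to 11 normalized reads in 9 animals and 79 to 241 in 19. The 9 were 6 LD, 2 BD and 1 VHD animal, 4 of them in cohort 4, 0 in cohort 5, 4 in cohort 7a and 1 in cohort 7b, and the gene as a whole overlapped at 4339 to 5861 and 3663 to 6617. The 27-base exon 6 of PTPRA (chromosome 15, 35800455 to 35800481), a receptor phosphatase, had 8 to 20 in 15 animals and 92 to 181 in 13. The 85-base exon after it moved along, at 75 to 130 in the same 15 animals and 192 to 313 in the 13, while the 342-base exon before it overlapped at 706 to 1048 and 737 to 1166. The 26-base exon 8 of HNRNPC, an RNA-binding protein of the spliceosome, split the animals 14 to 14, at 31 to 56 and 162 to 265. The 183-base exon after it went the other way, with medians of 248 (40 to 328) and 68 (50 to 349). The 277-base exon before it had medians of 258 and 274.5.

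The other 6 split the animals less evenly. The 19-base exon of NBR1, an autophagy receptor, had 6 to 11 normalized reads in 5 animals and 54 to 92 in 23, and the 23-base microexon after it had 22 to 36 in the 5 and 18 to 104 in the 23. The 20-base exon of RAPGEF4, a cAMP-activated exchange factor, had 9 to 19 in 5 animals and 62 to 138 in 23. The 26-base exon of SFXN5 had 2 to 12 in 21 and 67 to 86 in 7, while the 27-base exon 2 places further on in the same gene showed no such gap at 43 to 98. The 55-base exon just after the 26-base one had medians of 39 (33 to 63) in the 21 and 96 (29 to 114) in the 7. The 54-base exon before it had medians of 111 and 130. The 22-base exon of TNRC6B was at 0 in 3 animals, 1 of them the shallowest library where 1 read is worth 8.02, and at 14 to 41 in 25. DTNBP1, dysbindin of endosomal sorting, and ZBTB8OS, a tRNA ligase cofactor, each had 9 animals low, at 2 to 7 against 22 to 65 and at 2 to 7 against 24 to 63. No animal was low in all 10, and the number of low exons per animal ran from 2 to 7, so the low animals differed from exon to exon.

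**Figure D2:**
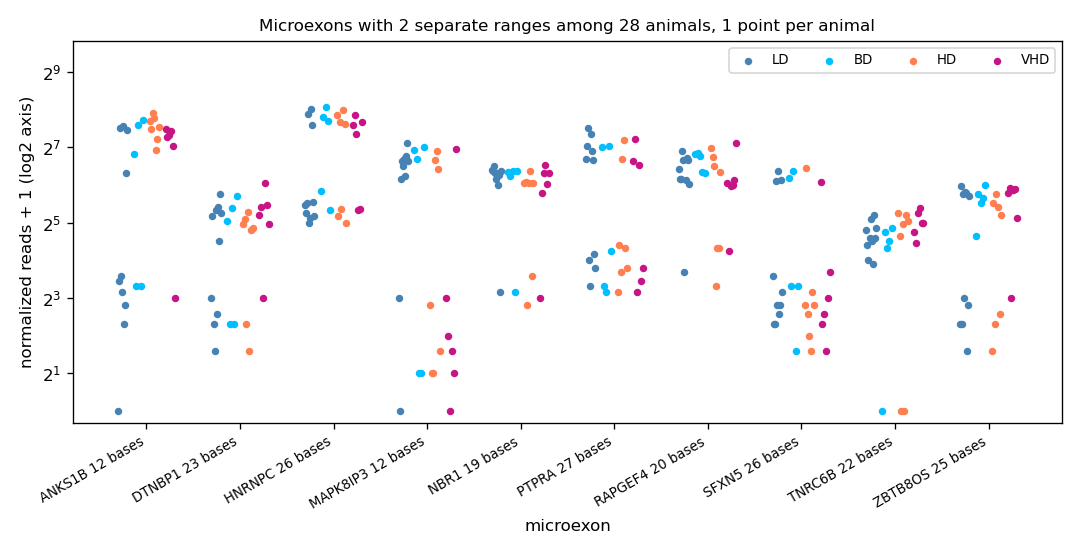
Normalized reads + 1 (log2 axis) of the 10 microexons whose animals fall into 2 ranges, 1 point per animal, coloured by drinking category. MAPK8IP3 is at 0 to 7 in 13 animals and 70 to 138 in 15, and ANKS1B at 0 to 11 in 9 and 79 to 241 in 19, with animals of several categories in each range.

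Adjacent microexons of 1 gene moved together and distant ones did not. In 23 genes with more than 1 microexon there were 42 pairs. The SD of the difference in relative use over 28 animals was set against the SD that the 2 separate variances give when added. For the 16 pairs of adjacent exons the ratio of the 2 had a median of 0.59 (0.40 to 1.18), and for the 26 other pairs a median of 1.003 (0.78 to 1.15). The 18- and 24-base exons of CLASP2 had an SD of difference of 0.08 where 0.21 would follow from the separate variances. The 18- and 9-base exons of PTPRD had 0.49 against 1.20, the 22- and 17-base exons of VAV2 0.41 against 0.95, and the 21- and 27-base exons of BTN2A1 0.16 against 0.40. The 26- and 27-base exons of SFXN5 had 1.47 against 1.47, and the 21- and 12-base exons of GRAMD1B 1.33 against 1.34. Adjacent pairs were not all alike, since the neighbouring 18- and 21-base exons of SLC8A1 had 0.72 against 0.73, and the 10- and 24-base exons of PRKACB 0.60 against 0.51. A read that spans both of a pair can count for both, and its part in the ratios was not tested.

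**Figure D3:**
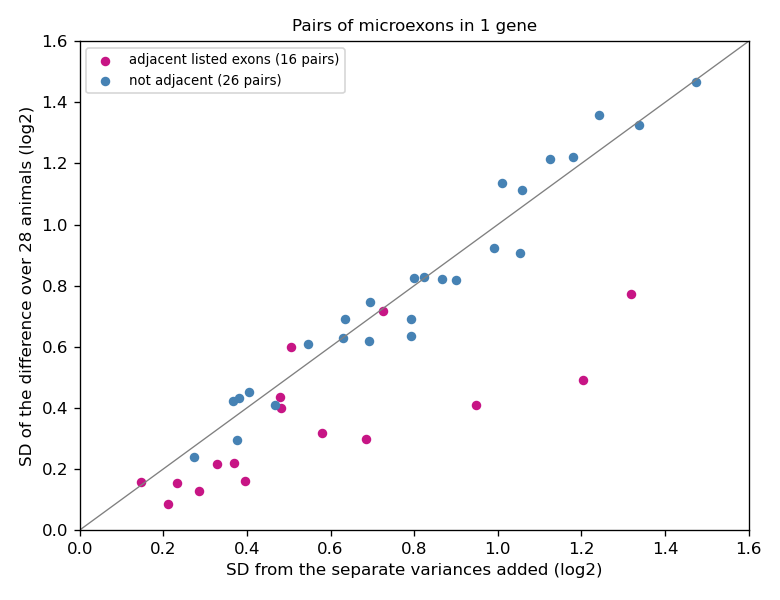
Each point is a pair of microexons in 1 gene, with the SD over 28 animals of the difference in relative use (y, log2) against the SD expected from adding the 2 separate variances (x, log2). The diagonal marks equality, 11 of 16 adjacent pairs have a ratio under 0.8, and 1 of 26 other pairs does.

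Relative use was compared between 13 heavy (HD and VHD) and 15 low (LD and BD) drinkers in a limma fit with cohort as a term over all 109212 tested exons. Cohort 5 holds 7 of the 13 heavy drinkers and no low drinker, so the difference rests on the 6 heavy drinkers of cohorts 4, 7a and 7b (1, 4 and 1). At a Benjamini-Hochberg adjusted p under 0.05 no microexon was called, as was 0.0% of all exons. At an unadjusted p under 0.05 there were 11 microexons, 5 higher and 6 lower in heavy drinkers, or 4.31% of 255, and 3.72% of all exons. For 207 of 255 microexons (81.2%) the 95% interval of the difference lay within 2-fold in both directions. Fitted differences were above 0 for 158 of 255 microexons with a median of 0.06. At 28 to 51 bases they were above 0 for 1623 of 3155 exons with a median of 0.01. All exons come from the same animals, and these counts were not tested. The p-values measure the spread between animals.

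The ANKS1B microexon had the largest difference among the 4 higher exons with the smallest p. LD animals had 0 to 188 normalized reads (median 10.5), BD animals 112, 9, 190, 9 and 211, HD animals 120 to 241 (median 185) and VHD animals 7 to 179 (median 156). All 7 HD animals were in the upper range and the other categories were in both. The difference was 1.97 ± 1.80 (half-width of the 95% interval) on the log2 scale, with an unadjusted limma p of 0.033 and an adjusted p of 1.0. Heavy animals were 2.72, 1.92 and 1.27 above low ones within cohorts 4, 7a and 7b, of which cohorts 4 and 7b hold 1 heavy animal each.

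The 21-base exon 23 of DGKB, a diacylglycerol kinase, had 2 to 70 normalized reads in low drinkers (median 7) and 3 to 49 in heavy drinkers (median 19), so the groups overlapped. Its difference was 1.07 ± 1.03 (limma p of 0.041, adjusted p of 1.0). The 25-base exon 12 of FCHO1, a protein of early clathrin pits, differed by 0.81 ± 0.63 at 0 to 11 and 3 to 12 normalized reads. The 25-base exon 7 of ARMC9, a cilium protein, differed by 0.41 ± 0.40.

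On the lower side, the 21-base exon 5 of MEF2D (chromosome 1, 130665849 to 130665869) had 6 to 23 normalized reads in low drinkers (median 16) and 2 to 33 in heavy drinkers (median 12). It differed by -0.51 ± 0.45, and by -1.57, 0.03 and -0.71 within cohorts 4, 7a and 7b, so cohort 7a did not share the direction. C18orf21 (-0.49 ± 0.40), YTHDF3 (-0.56 ± 0.50) and the 27-base exon of SFXN5 (-0.22 ± 0.21) were the other 3. Their groups overlapped, with YTHDF3 at 4 to 40 and 6 to 29 normalized reads in low and heavy drinkers. None of the 8 passed the adjusted threshold.

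**Figure D4:**
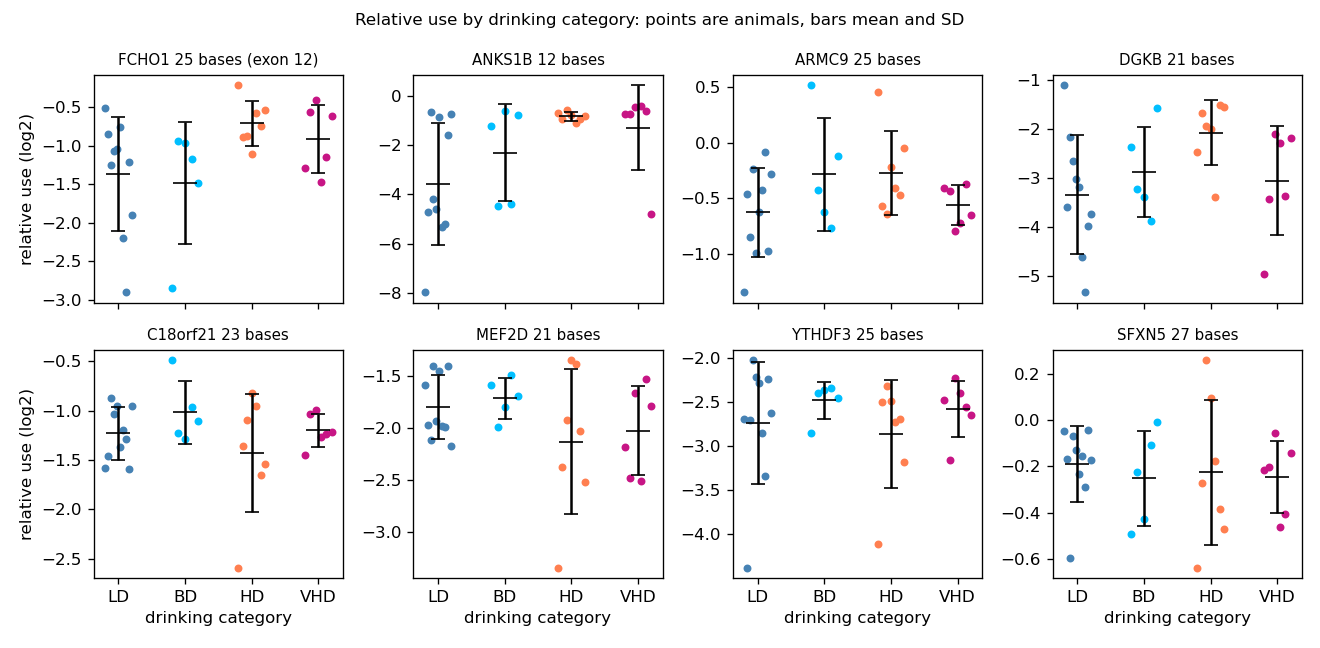
Relative use (log2) of the 4 higher and the 4 lower microexons with the smallest p for heavy vs low drinkers, 1 point per animal by drinking category, with mean and SD. Every panel shows overlapping categories, and in ANKS1B all 7 HD animals lie in the upper range while 6 of 10 LD animals lie in the lower one.

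The separate categories gave no adjusted calls either, with 0.0% of all exons called in each. VHD against LD had 8 microexons at an unadjusted p under 0.05 (3.14%, with 2.95% of all exons). Cohort 5 holds 4 of the 6 VHD animals and no LD animal. Only cohort 7a holds both, with 2 VHD and 3 LD animals, and the rest of the comparison runs through the other categories. The 17-base exon 6 of PPP1R12B, a myosin phosphatase subunit, had a fitted difference of 0.52 ± 0.42, and of 0.46 within cohort 7a. The MEF2C exon had 0.75 ± 0.68, but only 0.24 within cohort 7a. The ARHGEF12 exon had a difference of -0.76 ± 0.61, and of -1.11 within cohort 7a. HD against LD had 10 (3.92%, with 3.52% of all exons), among them ANKS1B at 2.51 ± 1.95, DGKB at 1.41 ± 1.11, the 18-base exon of the calcium channel subunit CACNA2D3 at 0.83 ± 0.70 and PTPRA at -1.73 ± 1.68. The VHD, HD and BD comparisons share the LD animals.

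BD against LD had 22 microexons at an unadjusted p under 0.05 (8.63%), and 7.57% of all exons passed as well. The 23-base exon 18 of FRMD4A, a cell polarity scaffold, had the smallest p. LD animals had 8 to 47 normalized reads and BD animals 0, 8, 12, 8 and 12, where the 0 is the shallowest library. The difference was -1.35 ± 0.85 (limma p of 0.00297, adjusted p of 0.655). The 27-base exon 7 of ERO1LB, an oxidase of protein folding, was at 9 to 16 in LD and 0, 9, 7, 3 and 18 in BD animals, a difference of -1.09 ± 0.72. The 26-base exon 8 of SLC24A3, a sodium-calcium-potassium exchanger, differed by 1.94 ± 1.61, at 0 to 59 in LD and 32, 33, 9, 73 and 46 in BD animals. Without the shallowest library, BD replicate 1, the count fell from 22 to 7 microexons, and that of all exons from 8264 to 4219.

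Cohorts, tested with category as a term, had 8 microexons at an unadjusted p under 0.05 (3.14%, with 3.42% of all exons) and none at an adjusted p under 0.05 (0.0% of all exons). Among the smallest p were those of the 18-base exon of PTPRD (limma p of 0.0117), the 24-base exon of SRCIN1, a Src signalling adaptor (0.0222), and the 24-base exon of MDGA1, an adhesion regulator of inhibitory synapses (0.0241), all with an adjusted p of 1.0.

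The known splicing regulators were measured in the same libraries. Of 35 in the list, 28 were in the gene table and passed the filter. None differed at an adjusted p under 0.05 (limma, 13022 genes) in any of 5 comparisons, nor did any of the 224 host genes for heavy vs low or VHD vs LD (0.0% of all genes). At an unadjusted p under 0.05 there were 1 regulator for heavy vs low (4.18% of all genes), 3 for VHD vs LD (8.57%), 1 for HD vs LD (3.96%), 1 for BD vs LD (3.52%) and 6 for cohorts (9.41%). Among host genes there were 13 for heavy vs low (5.80% of 224) and 22 for VHD vs LD (9.82%).

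SRRM4 had 620 ± 124 normalized reads (SD) in the 10 LD animals, 647 ± 95.2 in the 5 BD animals, 730 ± 213 in the 7 HD animals and 794 ± 228 in the 6 VHD animals, with all categories overlapping. Its fitted difference for VHD vs LD was 0.41 ± 0.42 on the log2 scale (limma p of 0.0588, adjusted p of 0.595). As for the exons, only cohort 7a holds both VHD and LD animals. RBFOX1 had 3837 ± 725 in LD animals, 3427 ± 463 in BD animals, 4003 ± 478 in HD animals and 2693 ± 1006 in VHD animals, and VHD differed from LD by -0.60 ± 0.46 (limma p of 0.0122, adjusted p of 0.532). The 6 VHD libraries had 3773, 3323, 1647, 2025, 1704 and 3684, so replicates 3, 4 and 5 were low and the other 3 lay within the LD range. Replicates 3, 4 and 5 also had myelin scores of 0.85, 0.70 and 0.54, where the other 3 had -0.13, -0.01 and 0.28 (each score is the mean centred log2 value of 10 markers). Their astrocyte scores were 0.19, 0.29 and 0.41. All 10 myelin markers were measured, and summed to 44784 to 97437 normalized reads in LD, 71639 to 92968 in BD, 49112 to 81531 in HD and 68250 to 129903 in VHD animals. All 10 astrocyte markers summed to 173107 to 221840, 173812 to 221848, 162426 to 232362 and 185840 to 246134. VHD replicates 3, 4 and 5 had SRRM4 at 1127, 821 and 931 normalized reads, and the other 3 at 505, 580 and 796. LD replicate 8 had the lowest SRRM4 (432) and the highest RBFOX1 (5551) of the 28 libraries. The part of these markers in the SRRM4 and RBFOX1 differences, or in the slopes on either level given further on, was not tested. For the other regulators, in the order LD, BD, HD and VHD, RBFOX3, the NeuN antigen, had 824 ± 204, 908 ± 261, 888 ± 198 and 772 ± 369. PTBP1 had 437 ± 61.9, 436 ± 46.6, 420 ± 65.5 and 514 ± 44.8, and its neural relative PTBP2 2818 ± 246, 2965 ± 264, 2791 ± 156 and 2632 ± 242. NOVA1 had 1462 ± 317, 1452 ± 334, 1421 ± 284 and 1663 ± 136. SRRM3 was among the 7 regulators with no match in the gene table.

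Relative use was then fitted on the SRRM4 level of each animal, 432 to 1132 normalized reads, with cohort as a term. No microexon passed the adjusted threshold (0.0% of all exons). At an unadjusted p under 0.05 there were 28 microexons, 20 with a positive and 8 with a negative slope, or 11.0% of 255. The share was 4.51% of all exons, 5.01% at 28 to 51 bases and 4.25% at 52 to 100 bases. Slopes were above 0 in 159 of 255 microexons with a median of 0.08. At 28 to 51 bases they were above 0 in 1659 of 3155 exons with a median of 0.01. These counts come from the same animals and were not tested.

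The NRCAM exon had a slope of 0.40 ± 0.25 per doubling of SRRM4 (limma p of 0.00218, adjusted p of 0.979). Its slopes were 0.50, 0.27 and 0.40 within cohorts 4, 5 and 7a, the same direction in all 3. Slopes within cohort 7b, of 5 animals, were not computed for this or any other fit. The 27-base exon 7 of TMEFF2, a brain transmembrane protein, had 14 to 174 normalized reads and 1.33 ± 0.83, with 1.45, 1.49 and 0.24 within those cohorts. The 25-base exon 15 of FCHO2, a protein of clathrin pits, had 0.79 ± 0.50. Slopes went down for TOP1 (-1.92 ± 1.07), PTPRA (-2.50 ± 1.72), the 24-base exon 6 of NTRK3 (-1.69 ± 1.27), the receptor of neurotrophin 3, and BABAM1 (-0.35 ± 0.27), a DNA repair factor. BABAM1 had slopes of -0.62, -0.56 and 0.25 within cohorts 4, 5 and 7a, so cohort 7a went the other way, while the slopes of FCHO2, TOP1, PTPRA and NTRK3 kept their sign in all 3. TOP1 rests on 0 to 17 normalized reads. PTPRA falls into 2 ranges, so a slope describes it poorly.

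**Figure D5:**
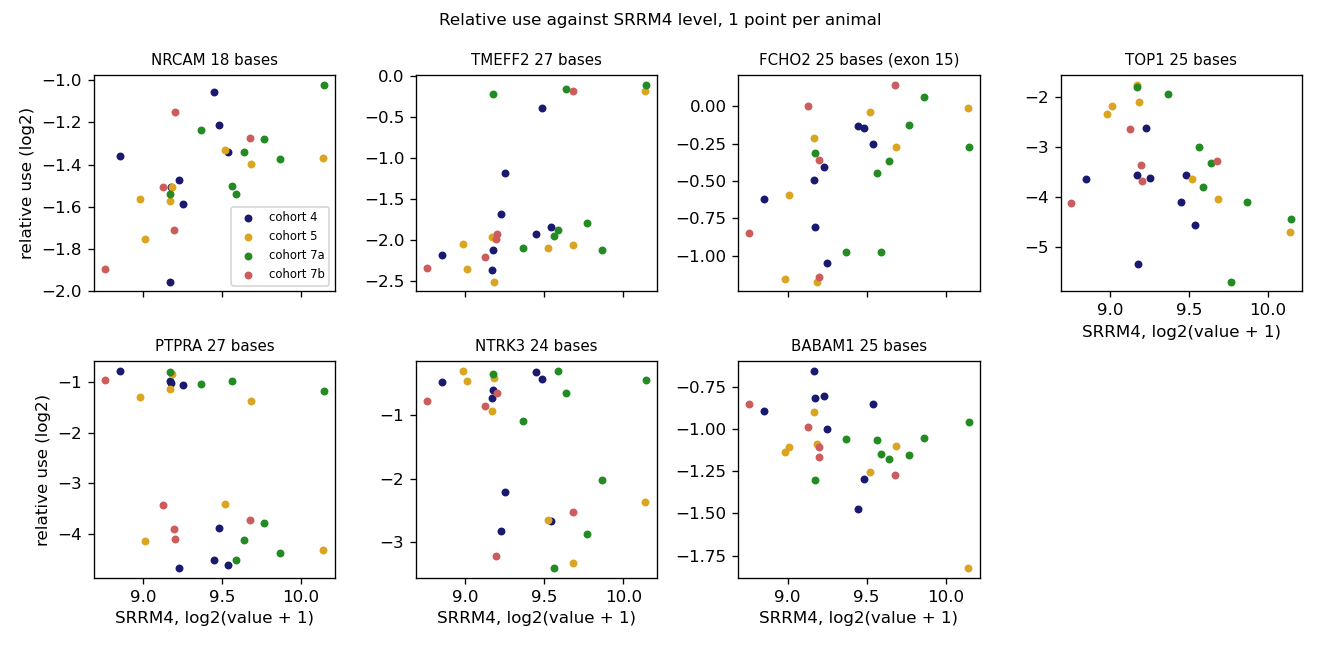
Relative use (y, log2) against SRRM4 level (x, log2 of normalized reads + 1) for 3 microexons with a positive and 4 with a negative slope among those with the smallest p, 1 point per animal, coloured by cohort. NRCAM and FCHO2 form a single cloud, and PTPRA lies in 2 separate bands.

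Against RBFOX1, 1647 to 5551 normalized reads, no microexon passed the adjusted threshold, while 33 of all exons did (0.0302%). At an unadjusted p under 0.05 there were 25 microexons, 13 with a positive and 12 with a negative slope (9.80%, with 5.48% of all exons). The 27-base exon 4 of NTNG1, netrin G1, had a slope of 1.62 ± 0.90 (limma p of 0.000997, adjusted p of 0.448), although within cohorts 4, 5 and 7a the slopes were -2.64, 2.00 and 1.96 and values were 0 to 25. MAPK8IP3 had 2.71 ± 2.07 with 4.11, 2.07 and 4.13 within the 3 cohorts, and RAPGEF4 -1.16 ± 0.82 with -0.999, -0.891 and -1.81, and both of these exons fall into 2 ranges. The 27-base exon 6 of FSTL5 had -0.94 ± 0.60, with -0.99, -1.44 and 0.004 within the 3 cohorts. The 26-base exon 6 of MORF4L1, a chromatin reader, had -0.14 ± 0.09 at 388 to 748 normalized reads. The 23-base exon 3 of PTS, an enzyme of tetrahydrobiopterin synthesis, had -0.82 ± 0.57 (adjusted p of 0.692), and without BD replicate 1 it was called, at -0.90 and an adjusted limma p of 0.0148. Its slopes were 0.37, -0.97 and -0.71 within cohorts 4, 5 and 7a, so cohort 4 went the other way.

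Against the pan-neuronal score, the mean of the 15 centred log2 values, no microexon was called while 98 of all exons were (0.0897%). At an unadjusted p under 0.05 there were 18 microexons (7.06%, with 6.54% of all exons). The 21-base exon 9 of DCTN4 (chromosome 5, 148624626 to 148624646), a dynactin subunit, had the smallest p of any microexon in the 8 fits, with 4 to 30 normalized reads, a slope of 1.61 ± 0.76 per unit of score (limma p of 0.000167, adjusted p of 0.113) and slopes of 1.47, 2.96 and 1.55 within cohorts 4, 5 and 7a. It passed when HD replicate 1, BD replicate 1 or BD replicate 3 was left out, with adjusted limma p-values of 0.0349, 0.0469 and 0.043. GLIPR1 had -1.03 ± 0.56. The 16-base exon 3 of JAM2, an endothelial junction protein, had -0.63 ± 0.44, with -0.82, 0.22 and -0.97 within the 3 cohorts, so cohort 5 went the other way. NRCAM had 0.48 ± 0.32, also with a positive slope in each of the 3 cohorts.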

How the data were processed

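Per the labels' protocols, RNA from 28 blocks was sequenced after ribosomal RNA depletion with a stranded kit. Tools named in the submitters' processing notes, with no order, are STAR 2.3.0e, CASAVA, edgeR and FastQC. Which build and annotation served is not given in the sources used here. Exon values are a score, upper-quartile normalized reads that the authors rounded to whole numbers before they were deposited. The deposited gene values are the same quantity as an unrounded signal. Each table has 30 columns, 2 of which are not used here. Coordinates are those of the exon table, on an unnamed build. No sequence is printed.

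Exons at 10 or more in at least 5 libraries, in genes with at least 3 such exons, were tested (109212 exons, 9817 genes). Relative use was fitted in limma (3.58.1, R 4.3.3), with eBayes allowing a trend of variance on mean level. p-values are two-sided and adjusted by Benjamini-Hochberg over all tested exons with a threshold of 0.05. A ± after a limma difference is the half-width of its 95% interval, elsewhere it is the SD. Regulator and host genes (13022 genes tested), the 2 ranges, same-gene pairs and shared lengths were added after seeing the data. The pipeline was tested on simulated data. Python 3.11.15 was used for the descriptions.

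Named exons were the 4 higher and 4 lower with the smallest p per fit, the 5 highest and 5 lowest, the 5 with the largest SD, 3 on each side of the thresholds and up to 6 per host list. Others were chosen after their values were seen. A few of the exons it would name are left out and not reported here. Members and lists were chosen with earlier results of these data known. Alternatives were other pseudocounts (0.5, 8), filters (50, none), references and length limits (15, 51), other models and leaving out libraries. Intervals of shares cover counting error only.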

Additional observations from a re-analysis of the deposited data

Results flagged for a closer look

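Single animals stood far from the others of their category in 24 of 188 combinations of 47 named microexons and 4 categories, by the gap to the nearest animal relative to the whole range. A chance rate of about 1 in 20 groups holds only for exons picked without regard to their values. These 47 were named from the same values, so the flags cannot be set against that rate. All values are relative use on the log2 scale, and none was given an explanation.

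The shallowest library, BD replicate 1, was apart in 6 exons, and 1 read in it is worth 8.02 normalized reads. It was the lowest of BD for FCHO1 exon 12 (-2.84, 0 normalized reads), YTHDF3 (-2.85), FRMD4A (-5.15, 0 normalized reads) and the 18-base exon of CLASP2 (-1.55), and the highest for ARHGEF12 (-0.28) and CACNA2D3 (-0.60). BD replicate 2 was the highest for NRCAM (-1.34), and BD replicate 3 the lowest for SLC24A3 (-3.10).

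Among exons with 2 ranges, VHD replicate 6 was the only VHD animal in the lower range of ANKS1B (-4.81, 7 normalized reads, median of VHD -0.68). LD replicate 2 was the lowest LD animal for MAPK8IP3 (-7.10, 0 normalized reads). LD replicate 6 (-3.61) and VHD replicate 2 (-2.89) were alone in their categories in the lower range of RAPGEF4.

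Low values far from the rest were also found for SFXN5's 27-base exon in LD replicate 3 (-0.60), MEF2C in LD replicate 1 (-1.94) and HD replicate 2 (-3.99, 10 normalized reads), CACNA2D3 in VHD replicate 2 (-3.00), AHI1, a ciliary protein, in HD replicate 6 (-3.43, 3 normalized reads), the 24-base exon 4 of PRKACB in VHD replicate 6 (-1.31), the 18-base exon of PTPRD in LD replicate 8 (-5.27, 1 normalized read) and BABAM1 in VHD replicate 3 (-1.83).

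High values far from the rest were those of SRCIN1 in HD replicate 7 (-1.03), TMEFF2 in HD replicate 5 (-0.11, 174 normalized reads), FSTL5 in VHD replicate 4 (-0.38, 59 normalized reads) and JAM2 in LD replicate 1 (0.14).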

How the results depend on the processing

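No microexon was called in any of the 8 fits with the main settings, under a pseudocount of 0.5 or 8, a filter of 50, no filter, or relative to the other or the neighbouring exons. Over these alternatives 22 to 63 exons were called in all for RBFOX1, 12 to 183 for the pan-neuronal score and at most 1 for any other fit. The fits with no filter counted the same 255 microexons, and calls among the short exons added there were not counted. With limma's diffSplice, which shares the spread over a gene's exons, 4 of 255 microexons were called for heavy vs low (PTPRA, ANKS1B, MAPK8IP3 and TOP1). There were 4 for VHD vs LD, 2 for HD vs LD and 8 for BD vs LD. In all 122, 117, 104 and 444 of 109212 exons were called. PTPRA, ANKS1B and MAPK8IP3 fall into 2 ranges, and a shared spread is not their own. TOP1 rests on 0 to 17 normalized reads. Without the 3 shallowest libraries 1 microexon was called for RBFOX1 (PTS), of 59 exons called in all. Without the cohort term 1 was called for the pan-neuronal score (DCTN4), of 139 exons called in all. Leaving out single libraries gave 0 to 1 calls for RBFOX1 (13 to 49 over all exons) and for the pan-neuronal score (52 to 151). It gave 0 to 0 for the other 6 fits, with 0 to 2 over all exons for BD vs LD and 0 to 0 for the rest. The cause was not tested.

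At an unadjusted p under 0.05 the counts for heavy vs low went from 11 to 6 without HD replicate 1, 6 or 7, BD replicate 4 or LD replicate 7, and to 7 without LD replicate 9. For VHD vs LD they went from 8 to 5 without LD replicate 1 or 8, VHD replicate 4 or HD replicate 5 or 7, for HD vs LD from 10 to 6 without LD replicate 7, and for BD vs LD from 22 to 7 without BD replicate 1. For cohorts they went from 8 to 14 without BD replicate 1, to 13 without LD replicate 9 and to 4 without HD replicate 7. Over all other alternatives the range was 2 to 17 for heavy vs low, 4 to 15 for VHD, 2 to 21 for HD, 3 to 40 for BD, 3 to 10 for cohorts, 15 to 37 for SRRM4, 14 to 29 for RBFOX1 and 11 to 25 for the pan-neuronal score. In each of the 8 the low end is the filter of 50, which leaves 97 microexons. In the same order the counts over all exons ran from 2267 to 6261, 1922 to 5026, 2145 to 6006, 3936 to 10439, 2288 to 5737, 3134 to 7882, 3948 to 8995 and 4128 to 10809, each lowest under that filter and highest with no filter, except SRRM4 and RBFOX1, which were highest without the 3 shallowest libraries.

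The median relative use of -1.17 became -0.96 with a pseudocount of 8, -1.04 with a filter of 50, -0.94 with no filter (427 microexons), -1.24 relative to the other exons, -0.90 relative to the neighbouring exons, -2.13 with a length limit of 15 bases and -0.69 with one of 51. It was -1.18 to -1.14 without single libraries. The share of lengths divisible by 3, 58.8%, became 66.0% with a filter of 50, 81.8% with a limit of 15 bases and 44.0% with one of 51, and was 58.3% to 59.1% without single libraries. Among the named exons, MEF2D changed sign for heavy vs low in cohort 7a alone (0.033), and TXNRD2 for BD vs LD relative to the neighbouring exons (-0.092). No paired analysis was possible because the replicate numbers only follow the order of the samples and mark no shared animal or day. Depth limits exons near 10 normalized reads most, above all in the library where 1 read is worth 8.02.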

Other observations

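Several microexons outside the named set had a relative use that varied little between animals. The 12-base exon of UCHL1, a neuronal ubiquitin hydrolase, had a mean of 566 normalized reads and a relative use of -1.68 ± 0.11 (SD, n = 28), and the 24-base exon of APLP1, an amyloid precursor relative, had 399 normalized reads and -0.25 ± 0.09. The 12-base exon 4 of RPL13 had 678 normalized reads and -0.12 ± 0.08, while the 21-base exon before it in the same gene had 367 and -1.01 ± 0.12. The shortest of the 255, the 8-base exon 7 of PITPNB, a phosphatidylinositol transfer protein (chromosome 15, 69644847 to 69644854), had 16 to 67 normalized reads and -0.62 ± 0.28, above the median of its length class. These exons were chosen after their values were seen.

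The median relative use over the 255 microexons was nearly the same in every animal, from -1.16 to -0.99 with an SD of 0.05 over 28 libraries. By category the mean was -1.07 ± 0.04 for LD animals, -1.08 ± 0.05 for BD animals, -1.05 ± 0.05 for HD animals and -1.06 ± 0.06 for VHD animals.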
